A study of Rattus norvegicus with 71 samples.

Results

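Rat pups exposed before birth to maternal antibodies against CRMP1 and CRMP2 were compared directly with pups exposed to maternal antibodies against CRMP1 and GDA, so that both groups shared the CRMP1 antigen and differed in the second. The members were chosen by the autoantibody label within the title series MAR_C3, and no control animal entered the contrast. They were 14 of the 71 libraries, 8 labelled CRMP1+CRMP2 (5 male and 3 female pups from 4 dams) and 6 labelled CRMP1+GDA (2 male and 4 female pups from 3 dams). All 14 were WT Sprague-Dawley pups taken at postnatal day 2 (PND2), and each library came from poly-A RNA of a single thin coronal brain slice that held the hippocampal formation with neighbouring cortical and subcortical tissue.

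Every dam in the comparison had received synthetic peptides of its antigens in Freund's adjuvant before mating, so the adjuvant and the immunization against CRMP1 were common to both groups. Antibody levels of single dams were not used here, so an equal anti-CRMP1 response was not tested. The exposure was given to the dam. Littermates therefore shared it, and the unit of exposure was the litter (4 against 3). The sex ratio also differed between the groups, and sex was a term in the model. Of the 12 adjuvant and saline control pups of the same title series, 6 male and 6 female from 4 dams, only the levels are given below, with no test.

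Maternal IgG crosses the placenta and can reach the fetal brain before its barriers are mature. Autoantibodies to the proteins studied here have been found in mothers of a subset of autistic children, a condition called maternal autoantibody related (MAR) autism. CRMP1 and CRMP2 (the product of Dpysl2) are cytosolic phosphoproteins of the collapsin response mediator family. They bind tubulin, and they relay semaphorin 3A signals that collapse the growth cone of an extending axon. GDA, guanine deaminase or cypin, converts guanine to xanthine, binds the postsynaptic scaffold PSD-95 and promotes dendrite branching in hippocampal neurons. An antibody acts on a protein, so the transcript of an antigen need not differ with exposure.

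The 14 libraries held between 26246595 and 36234952 counts, and the 10 most abundant genes took 4.13% to 5.01% of them. Eif2s3y, a Y-linked gene, was at 67.2 CPM (counts scaled to library size) or more in the 7 males and at 1.22 CPM or less in the 7 females, as labelled. General neuronal markers summed to between 10940 and 12860 CPM, and cortical and hippocampal excitatory markers were present in every slice (995 to 2430 CPM). The plane of the slice was less even. The 18 pineal genes summed to 364 CPM in the CRMP1+CRMP2 litter 1 female, 109.9 CPM in the litter 3 female and 66.9 CPM in the CRMP1+GDA litter 3 male, against 10.99 to 27.8 CPM in the other 11 animals. Thalamic markers were at 264 CPM in that litter 1 female and 439 CPM in a CRMP1+CRMP2 litter 2 male, and at 708 CPM or more elsewhere. Hox genes, which mark hindbrain and spinal cord, summed to 52.7 and 117 CPM in 2 CRMP1+CRMP2 males and to 228 and 34.1 CPM in 2 CRMP1+GDA animals, while 8 of the 30 Hox genes had no count in any of the 14 libraries. In bulk tissue fewer cells of a type and less RNA per cell cannot be told apart.

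**Figure D1:**
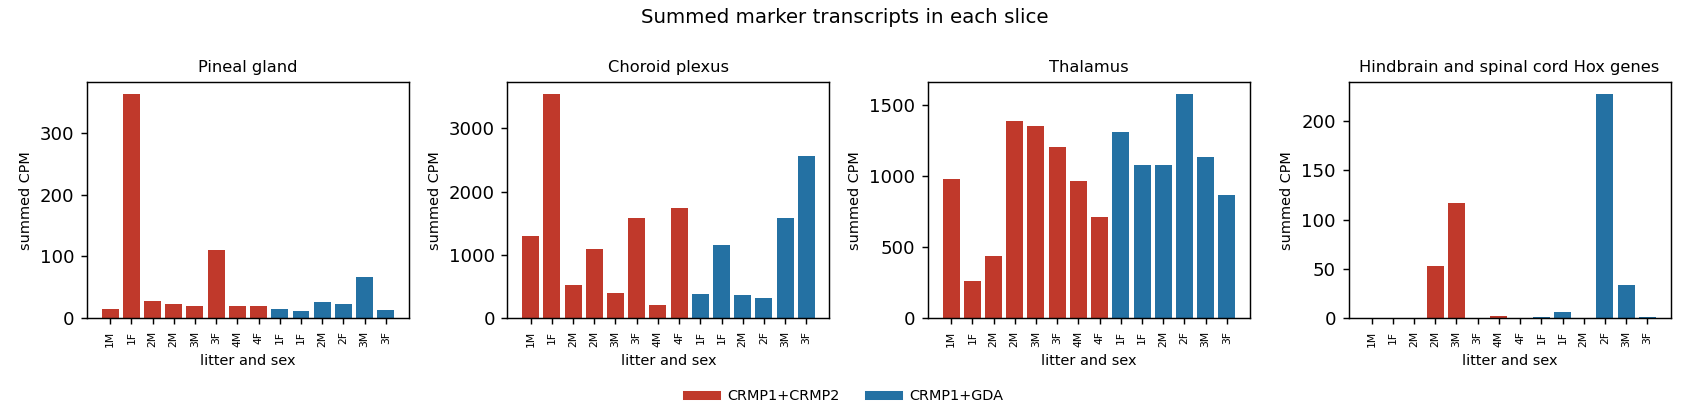
Summed CPM of marker genes (vertical axes, from 0) in each of the 14 slices, ordered by group, litter and sex (horizontal axes), red for CRMP1+CRMP2 and blue for CRMP1+GDA. One bar is one animal; the pineal sum of the CRMP1+CRMP2 litter 1 female (364 CPM) and the Hox sum of the CRMP1+GDA litter 2 female (228 CPM) stand above all others.

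The first comparison was of the antigens' own transcripts. Crmp1 and Dpysl2 were among the more abundant messages of the slice and Gda was much scarcer, with mean length-scaled levels over the 14 animals of 715, 602 and 34.3 RPKM. None of the 3 differed between the exposures beyond the spread of the litters.

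Crmp1 (rn7 chromosome 14, 73509933 to 73556177, minus strand) was at 2385 ± 319 CPM (SD, n = 8) in CRMP1+CRMP2 pups and 2355 ± 199 CPM (SD, n = 6) in CRMP1+GDA pups. The lowest, median and highest animals were at 1867, 2387 and 2987 CPM in the first group and at 2077, 2417 and 2538 CPM in the second. The CRMP1+CRMP2 animals thus spanned the whole range of the other group. The log2 fold change, coded throughout as CRMP1+CRMP2 minus CRMP1+GDA, was 0.05 with a 95% interval from -0.14 to 0.24 (adjusted p = 0.852, edgeR).

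Dpysl2 (chromosome 15, 41005551 to 41072857, minus strand), the gene of the antigen that only the CRMP1+CRMP2 dams received, was at 2559 ± 265 CPM (SD, n = 8) against 2729 ± 316 CPM (SD, n = 6). Its litter means were 2280, 2519, 2578 and 2860 CPM in the CRMP1+CRMP2 litters and 2397, 3017 and 2774 CPM in the CRMP1+GDA litters. They overlapped, and the log2 fold change was -0.10 (-0.29 to 0.08, adjusted p = 0.734, edgeR).

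Gda (chromosome 1, 218906852 to 218982360, minus strand), the gene of the antigen that only the CRMP1+GDA dams received, was the most variable of the 3. The CRMP1+CRMP2 animals ran from 16.1 through a median of 49.7 to 74.7 CPM, and the CRMP1+GDA animals from 37.7 through 49.3 to 56.6 CPM. Both ends of the range belonged to CRMP1+CRMP2 pups. The lowest was a litter 2 male, the same animal whose thalamic markers were at 439 CPM; the part of the slice's plane in this value was not tested. The log2 fold change was 0.13 with an interval from -0.39 to 0.66, so a difference of either sign up to these bounds was not excluded.

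Over litter means of log2 CPM, the exact two-sided permutation test gave p = 0.857 for Crmp1, 0.457 for Dpysl2 and 0.971 for Gda (4 against 3 litters), each 0.971 after adjustment over the 3 genes. With 35 ways to assign the litters, 0.0571 is the smallest p this test can give. The control pups ran from 2257 to 2753 CPM for Crmp1, from 2583 to 3151 CPM for Dpysl2 and from 38.1 to 85.3 CPM for Gda. The genes of the other 4 antigens used in the series had intervals that held 0 as well, with log2 fold changes of -0.11 for Ldha and -0.08 for Ldhb (the lactate dehydrogenase subunits), -0.08 for Stip1 (a Hsp70 and Hsp90 co-chaperone) and -0.13 for Eno2 (neuron-specific enolase).

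**Figure D2:**
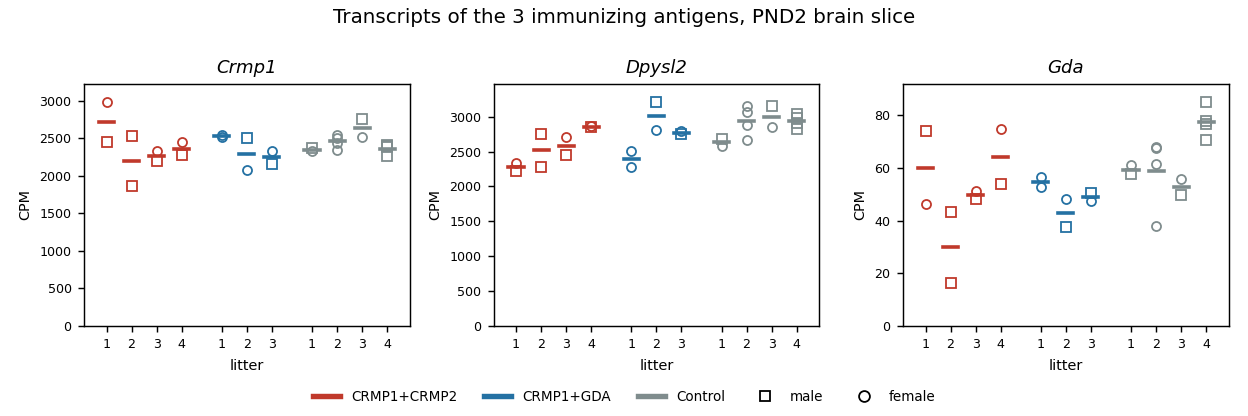
CPM (vertical axes, from 0) of Crmp1, Dpysl2 and Gda by litter (horizontal axes) in CRMP1+CRMP2, CRMP1+GDA and control pups; squares are males, circles females and bars litter means. The litters of both exposures overlap for all 3 genes, and Gda in a CRMP1+CRMP2 litter 2 male (16.1 CPM) is the lowest value.

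In the main test, described next, no gene of the transcriptome separated the exposures once multiple testing was accounted for. Of 12544 genes tested with edgeR's quasi-likelihood test with sex as a covariate, 0 passed a false discovery rate (FDR) of 0.1, which is 0% of those tested, and the smallest adjusted p was 0.566. At an unadjusted p below 0.05 there were 786 genes (6.27%), of which 413 were higher (3.29%) and 373 lower (2.97%) in CRMP1+CRMP2. Scaled by library size alone, the same threshold gave 593 higher and 235 lower.

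Other tests on the same animals called few genes. DESeq2 called 7, all higher in CRMP1+CRMP2, with 942 genes at an unadjusted p below 0.05. These 7 were Clk1, Jmjd7, Pla2g4b, Rbpjl, Rsrp1, RT1-S2 and Vwa3a, named here after the result was seen. The edgeR likelihood ratio test called 6, and the fit with a first surrogate variable called Rsrp1 and Clk1. With litter as the unit the counts of calls were again 0, with counts summed per litter (554 genes at p below 0.05 in edgeR) and with litter as a random effect in limma voom (547 genes). The estimated correlation between littermates was 0.262, so p-values over animals treat littermates as more independent than they were.

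The count of 0 changed when 1 particular litter was left out. Without the 2 pups of CRMP1+GDA litter 2, leaving 8 against 4 animals and 4 against 2 litters, 1316 genes passed the same FDR, 839 higher (6.71% of 12508) and 477 lower (3.81%) in CRMP1+CRMP2. Leaving out any other single litter or any single animal gave 0. The 1316 thus came from the 1 deletion that raised the count, with 4 CRMP1+GDA pups of 2 litters treated as separate animals. They are no separate support for a difference, and no fit over litters without this litter is given here. Of the 1316 genes, which were called without this litter, 444 had p below 0.05 with all litters. For 1189 of them the mean of the litter left out lay within or beyond the range of the CRMP1+CRMP2 litters. For 124 of them the means of all 7 litters were apart. The litter did not stand apart from all others in the profile as a whole: its root mean square distance to the nearest other litter (0.314 on the log2 scale, to CRMP1+CRMP2 litter 3) was the joint smallest of the 7. Its 2 pups differed from each other by 0.659, the largest distance between littermates of the 7 litters. CRMP1+CRMP2 litters 1 and 2 were close to it (0.654 and 0.647), and litters 3 and 4 were at 0.507 and 0.492. The other CRMP1+GDA litters were at 0.413 and 0.414. Which features of CRMP1+GDA litter 2 set the count was not tested.

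The precision of the comparison can be read from the intervals. The median half-width of the 95% interval over the 12544 genes was 0.256 on the log2 scale, with quartiles of 0.188 and 0.404. The interval lay wholly within 1 log2 unit of 0 for 11457 genes (91.3%) and within 0.5 for 8333 (66.4%). Only 72 genes had an estimate beyond 1 log2 unit in either direction. Their median level was 1.25 CPM, against 30.5 CPM for all genes tested.

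**Figure D3:**
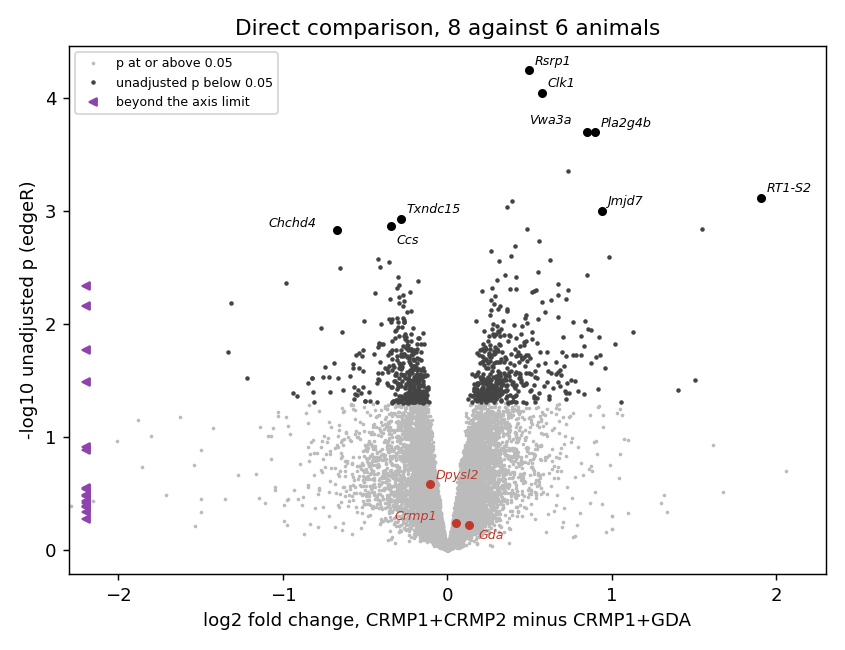
Log2 fold change (horizontal axis, CRMP1+CRMP2 minus CRMP1+GDA) against -log10 of the unadjusted edgeR p (vertical axis) for the 12544 genes, with p below 0.05 in dark grey and the antigen genes in red. No point passes FDR 0.1; Rsrp1 and Clk1 have the smallest p and the 3 antigen genes lie near the base, while triangles mark estimates beyond the axis.

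The 10 genes with the smallest p on the higher side were led by a pair tied to RNA splicing. None passed the adjusted test, and all values below are estimates. Rsrp1 (chromosome 5, 147147784 to 147151523), which encodes a protein rich in arginine and serine, was at 112, 136 and 159 CPM (lowest, median, highest) in CRMP1+CRMP2 pups and at 78.1, 85.6 and 123 CPM in CRMP1+GDA pups. Every CRMP1+CRMP2 animal but the litter 1 female lay above every CRMP1+GDA animal. The estimate was 0.50 (0.30 to 0.69, p = 5.67e-05, adjusted p = 0.566, edgeR), or 1.41-fold.

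Clk1 (chromosome 9, 59947774 to 59958993), a kinase that phosphorylates serine and arginine rich splicing factors, was at 55.2, 72.3 and 102 CPM against 38.7, 45.4 and 60.7 CPM. The groups overlapped through the litter 1 female of one and the litter 2 male of the other, and the estimate was 0.58 (0.34 to 0.81, adjusted p = 0.566, edgeR). For both genes the control litters were far apart from each other. Control litter 2 held the 4 highest control values of each gene, 149.5 to 220.0 CPM for Rsrp1 and 78.7 to 109 CPM for Clk1, while the other control pups were at 121 CPM or less and 63.7 CPM or less.

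Pla2g4b (chromosome 3, 107005489 to 107013853), a cytosolic phospholipase A2, and Jmjd7 (106998477 to 107004538 on the same strand), a JmjC-domain hydroxylase, are immediate neighbours, and reads that run from one into the other could be counted for either, so the 2 values are uncertain as separate measurements. Pla2g4b was at 28.98, 34.4 and 50.6 CPM against 9.96, 20.7 and 24.6 CPM. Jmjd7 was at 9.88, 12.3 and 18.8 CPM against 2.94, 7.10 and 8.84 CPM. Neither gene's animals overlapped between the exposures, and the estimates were 0.90 and 0.94.

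RT1-S2 (chromosome 20, 2650233 to 2651654), a class I gene of the rat major histocompatibility complex, had an estimate of 1.91 (0.94 to 2.88, adjusted p = 0.702, edgeR). Its level was low, at 1.39 to 2.80 CPM in CRMP1+CRMP2 pups and 0 to 0.940 CPM in CRMP1+GDA pups. It passed the filter on low values through the CRMP1+CRMP2 pups alone, so a difference in this direction was required of it and its lack of overlap is no support. Reads of RT1 genes are shared among near-identical family members and differ with the haplotype of an animal, so its count is uncertain. In the control pups it ran from 0 in both pups of litter 1 to 2.05 CPM.

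The animals did not overlap for Vwa3a, a gene with a von Willebrand factor A domain, at 9.75 to 18.5 CPM against 5.85 to 8.97 CPM (estimate 0.85). The other 4 genes overlapped in single animals. They were Rbpjl (0.74), a paralogue of the Notch effector RBPJ, Stat2 (0.39), a transducer of type I interferon signals, Cep85 (0.36), a centrosomal protein, and Reck (0.49), a membrane-anchored inhibitor of matrix metalloproteinases.

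Of the 10 genes with the smallest p on the lower side, Txndc15 (chromosome 17, 8898078 to 8910431), a membrane protein with a thioredoxin domain, was at 80.8, 92.6 and 102 CPM in CRMP1+CRMP2 pups and at 94.2, 117 and 123 CPM in CRMP1+GDA pups. The CRMP1+GDA litter 2 male, at 94.2 CPM, was the animal of that group that lay inside the other. The estimate was -0.28 (-0.43 to -0.13, adjusted p = 0.702, edgeR).

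Chchd4 (chromosome 4, 123968264 to 123977398), the oxidoreductase that folds proteins imported into the mitochondrial intermembrane space, was tight in one group and wide in the other. The 8 CRMP1+CRMP2 pups lay between 12.1 and 14.3 CPM, whereas the 6 CRMP1+GDA pups lay between 10.4 and 28.2 CPM, with the litter 2 female lowest and her brother at 23.8 CPM. The estimate was -0.67 (-1.04 to -0.30). Ccs, the copper chaperone of superoxide dismutase 1, was at 15.2 to 19.4 CPM against 18.5 to 24.9 CPM (-0.34).

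Fkbp4, a Hsp90-bound immunophilin, had the narrowest interval of the 20, at 165 to 189 CPM against 189.9 to 213 CPM, with no overlap of the animals and an estimate of -0.18 (-0.29 to -0.07). Fam181b did not overlap either, at 14.6 to 23.9 CPM against 24.3 to 31.1 CPM (-0.41). LOC308990 (-0.98) was at 0.159 to 0.671 CPM against 0.705 to 1.14 CPM and passed the filter on low values through the CRMP1+GDA pups alone, so it too had to differ in its direction. The remaining genes were Plin2 (-0.30), which coats lipid droplets, Napepld (-0.65), which makes N-acylethanolamines, Tmed3 (-0.36), a cargo receptor of the early secretory pathway, and LOC498122 (-0.42).

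**Figure D4:**
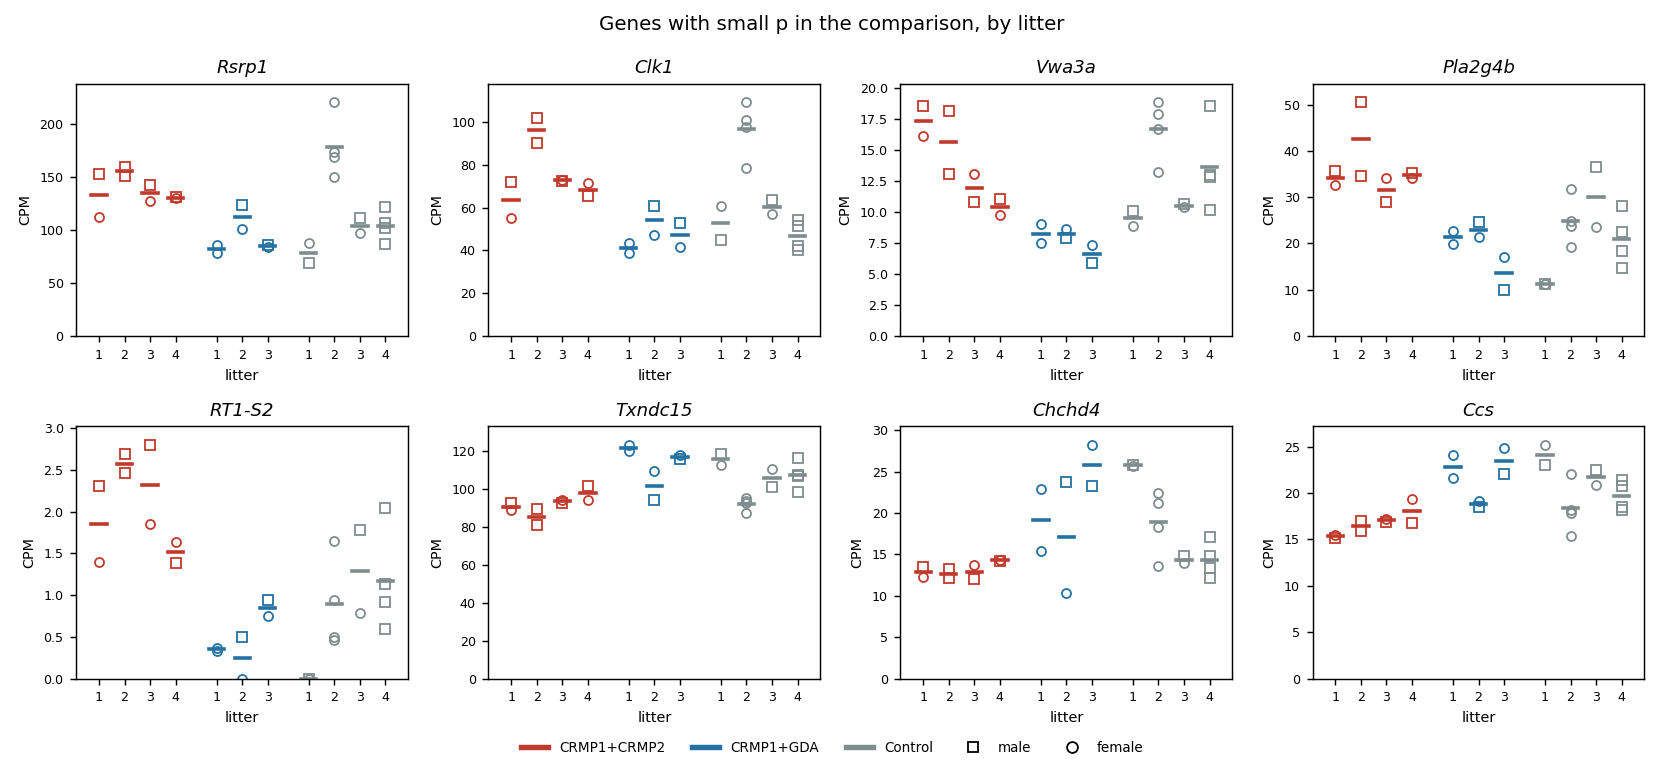
CPM (vertical axes, from 0) of 8 genes with small p, by litter (horizontal axes), in CRMP1+CRMP2 (red), CRMP1+GDA (blue) and control pups (grey); squares are males, circles females and bars litter means. The means of the exposed litters separate in each panel, as they did for 19 of the 20 genes picked for small p and for 641 of all 12544 genes tested. A small p on these same animals favours such separation, so it is no support. Control pups spread across both exposures for some genes, as for Rsrp1 (68.8 to 220.0 CPM). For Vwa3a the control pups (8.86 to 18.8 CPM) overlapped the top of the CRMP1+GDA pups (5.85 to 8.97 CPM) and the CRMP1+CRMP2 pups (9.75 to 18.5 CPM).

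The litter was used next as the unit of description. In 641 genes the 4 CRMP1+CRMP2 litter means of log2 CPM all lay on one side of the 3 CRMP1+GDA means, 326 higher (2.60% of those tested) and 315 lower (2.51%). Scaled by library size alone the split was 437 higher and 204 lower. The 10 of these genes with the largest group difference and over 5 CPM on average included Clk1, Vwa3a, Pla2g4b and Jmjd7 from above.

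Arpp21, a cAMP-regulated phosphoprotein of forebrain neurons, and Gipr, the receptor of the incretin hormone GIP, had the same animals at their tops. For Arpp21 the CRMP1+CRMP2 litter 2 male with thalamic markers at 439 CPM reached 459.7 CPM, against 198.7 CPM in the next animal of its group. The litter 2 male of CRMP1+GDA reached 244.5 CPM against 129 CPM in the next. For Gipr the same 2 males were at 176 and 80.6 CPM, with 93.6 and 39.4 CPM in the next animals. These males also had the highest cortical and hippocampal excitatory sums of their groups (2430 and 1972 CPM). The part of the slice's plane in these values was not tested. The estimates were 0.63 for Arpp21 and 0.96 for Gipr, with adjusted p = 0.702 for each (edgeR).

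Pdia2, a protein disulfide isomerase, was at 5.23 to 14.3 CPM against 2.06 to 6.06 CPM (0.98). Itga8, the integrin alpha 8 chain, was at 9.62 to 18.3 CPM against 7.03 to 15 CPM (0.62). On the lower side, Nts, the neuropeptide neurotensin, was at 14.1, 44.02 and 71.2 CPM against 39.8, 71.7 and 109 CPM (-0.81), and Ephx2, the soluble epoxide hydrolase, was at 0.674 to 8.41 CPM against 4.56 to 10.96 CPM (-0.74, -1.75 to 0.28). The Ephx2 interval held 0 although its litter means did not overlap. CRMP1+CRMP2 litter 2 averaged 0.713 CPM and the other CRMP1+CRMP2 litters 4.96 to 6.58 CPM.

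Gene lists were described by how many members passed the unadjusted threshold and by their median log2 fold change, beside -0.0048 for all 12544 genes. No member of any list passed FDR 0.1 with all litters, so each count below is of unadjusted p below 0.05. Of the 5 CRMP family genes none did, and their estimates lay between -0.10 and 0.07. Of 33 genes of semaphorin 3 signalling and CRMP kinases 1 was higher and 0 lower (median 0.11). It was Cyfip1 (0.16, 0.01 to 0.31), a regulator of actin nucleation and of translation at synapses.

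Of 28 tested genes of guanine deaminase and purine metabolism 2 were higher and 0 lower (median 0.03). Pfas (0.29), an enzyme of purine synthesis, was at 79.5 to 128 CPM against 61.4 to 103 CPM, and Prps2 (0.19), which makes the ribose donor, was at 37.5 to 54.5 CPM against 34.5 to 42.5 CPM. The animals overlapped for both. The share of 1 in 33 is near the background of 3.29%, and that of 2 in 28 rests on these 2 genes.

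Of 41 postsynaptic scaffold and adhesion genes 2 were higher and 0 lower (median 0.05). Gria3, an AMPA receptor subunit, was at 95.2, 114 and 132 CPM against 73.6, 81.4 and 111 CPM (0.32, 0.13 to 0.51), and Dlg2, the scaffold PSD-93, was at 128 to 198 CPM against 122 to 149.7 CPM (0.24). Of 53 synaptic vesicle and release genes 0 were higher and 2 lower (median -0.0027). Doc2b, a calcium sensor of spontaneous release, was at 37.2 to 61.7 CPM against 52.2 to 80.4 CPM (-0.36), and Rims3, an active zone protein, was at 37.4 to 62.7 CPM against 45.2 to 72.6 CPM (-0.31). Of 48 axon guidance genes outside the semaphorin 3 family 2 were higher, Ephb6 (0.36) and Efnb2 (0.27), an Eph receptor and an ephrin, and 0 were lower. The counts of 2 of 41, 2 of 53 and 2 of 48 are near the backgrounds of 3.29% higher and 2.97% lower.

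Oxidative phosphorylation and ribosomal protein genes had small estimates, nearly all below 0. Of 78 tested genes of oxidative phosphorylation 0 were higher and 9 lower, with 77 of 78 estimates below 0 and a median of -0.18. Of 75 cytosolic ribosomal protein genes 0 were higher and 10 lower, with all 75 estimates below 0 and a median of -0.16. The lower background is 2.97%. Uqcrfs1, the iron-sulfur subunit of complex III, was at 109.9 to 138 CPM against 124 to 166 CPM (-0.21). Ndufb8, of complex I, was at 93.9 to 145 CPM against 121 to 169.9 CPM (-0.26). Rpl13 was at 327 to 453 CPM against 365 to 570.4 CPM (-0.30), and Rps28 at 48.3 to 65.0 CPM against 39.6 to 85.3 CPM (-0.39). The members of each list share the same libraries and are not separate observations.

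By animal, the mean deviation of the oxidative phosphorylation genes from their average over the 14 ran from -0.34 through a median of -0.09 to 0.19 in CRMP1+CRMP2 pups and from -0.22 through 0.20 to 0.32 in CRMP1+GDA pups. CRMP1+CRMP2 litter 4 (0.13 and 0.19) lay with the high CRMP1+GDA litters, and CRMP1+GDA litter 2 (-0.05 and -0.22) lay with the low CRMP1+CRMP2 litters. For ribosomal protein genes the same 2 litters were at 0.09 and 0.12 and at 0.07 and -0.26. Without CRMP1+GDA litter 2, 28 of the 78 and 29 of the 75 genes passed FDR 0.1 as lower and none as higher, with medians of -0.29 and -0.23, where 3.81% of all genes tested passed as lower and 6.71% as higher. That fit left out the litter that lay with the other group on these scores and kept CRMP1+CRMP2 litter 4. A larger difference was therefore favoured in advance, and these counts are no separate support. The 4 CRMP1+GDA pups left came from 2 litters.

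Genes of the extracellular matrix and its receptors lay the other way. Of 66 tested, 5 were higher (background 3.29%) and 0 lower (2.97%), 53 had an estimate above 0, and the median was 0.14. Itga8 and Col6a4 (0.68), a collagen VI chain at 3.196 to 6.58 CPM against 1.63 to 3.64 CPM, had the smallest p. By animal the matrix score overlapped between the groups. It ran from -0.25 through a median of 0.05 to 0.43 in CRMP1+CRMP2 pups. In CRMP1+GDA pups it ran from -0.32 through -0.05 to 0.07. Without CRMP1+GDA litter 2, 8 were higher and 0 lower at FDR 0.1, where 6.71% of all genes tested were higher and 3.81% lower. This litter was singled out because its removal raised the count of calls, so these counts are no separate support either. The medians of the 3 lists kept their sign under each scaling tried.

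Exon length divided the litters in the same way as the oxidative phosphorylation and ribosomal protein scores did. In the quartile of genes with the shortest exons (up to 1500 bases in all) 47 were higher and 167 lower at p below 0.05, with a median log2 fold change of -0.09. In the quartile with the longest (3362 bases or more) 159 were higher and 10 lower, with a median of 0.08. Across the 12544 genes, which are not independent, Spearman's rho between exon length and log2 fold change was 0.341, and 0.432 without CRMP1+GDA litter 2. Among the oxidative phosphorylation genes 69 of 78, and among the ribosomal protein genes 69 of 75, were in the shortest quartile, while 53 of the 66 matrix genes were in the longest. Without CRMP1+GDA litter 2, 511 of 3132 genes of the longest quartile were higher and 3 lower at FDR 0.1. In the shortest quartile 63 of 3124 were higher and 300 lower. The median deviation of short genes minus that of long genes ran from -0.32 through -0.08 to 0.15 in CRMP1+CRMP2 pups and from -0.29 through 0.23 to 0.34 in CRMP1+GDA pups, with litter 4 of the one and litter 2 of the other again across the divide. The part of exon length in the list results was not tested, and the RNA quality of single libraries was not analysed here.

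**Figure D5:**
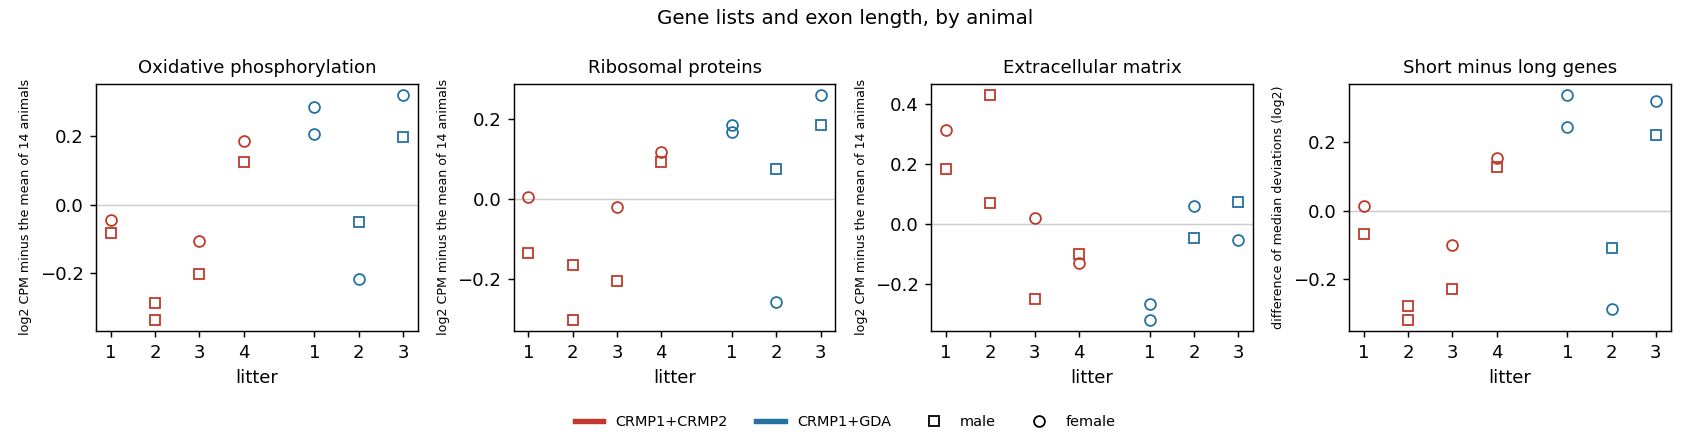
Mean log2 CPM of 3 gene lists relative to their mean over the 14 animals, and the median deviation of the shortest quartile of genes minus that of the longest (vertical axes), by litter (horizontal axes), red for CRMP1+CRMP2 and blue for CRMP1+GDA; squares are males and circles females. CRMP1+GDA litter 2 (-0.05 and -0.22 for oxidative phosphorylation) lies with the CRMP1+CRMP2 litters, and CRMP1+CRMP2 litter 4 (0.13 and 0.19) toward the CRMP1+GDA litters.

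These list results also depended on which slices were kept. Without the 3 animals with pineal markers over 50 CPM, the medians were -0.03 for oxidative phosphorylation, -0.08 for ribosomal proteins and 0.08 for the matrix, no member of the first 2 lists had p below 0.05, and rho with exon length was 0.0474. Over all genes 175 then had p below 0.05. That set held 5 males and 1 female against 1 male and 4 females, so sex and exposure were nearly confounded in it. Without the 4 animals with Hox genes over 30 CPM the medians were -0.18, -0.16 and 0.21, and without the 2 with low thalamic markers they were -0.15, -0.16 and 0.07.

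Of 28 genes for the cytokines, chemokines and growth factors that the study assayed as proteins, 4 passed the filter on low values. Il2, Ifng and Ccl11 were at or near 0 in all 14 libraries (0.113 CPM at most). Vegfa, the vascular endothelial growth factor, was at 97.4, 118 and 166 CPM against 78.2, 85.6 and 139 CPM, with an estimate of 0.30 (0.02 to 0.59, adjusted p = 0.702, edgeR). The highest values were those of the CRMP1+CRMP2 litter 2 male with thalamic markers at 439 CPM and of the CRMP1+GDA litter 2 male. Egf was at 2.86 to 4.33 CPM against 1.95 to 3.32 CPM (0.48). Of 24 tested receptors of these analytes and 7 IgG receptors none had p below 0.05 (medians 0.03 and -0.05).

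Of 26 interferon response and antigen presentation genes 1 was higher, Stat2, and 1 lower, Ifi27 (-0.36). Stat2 transmits the interferon signal and Ifi27 is induced by it. Of 44 cell cycle genes 0 were higher and 2 lower, Birc5 (-0.37) and Bub1b (-0.29), which act at the mitotic chromosome (median -0.06). Of 19 immediate early genes Egr2 was higher (0.72) and Jund lower (-0.26). The backgrounds over all genes tested were 3.29% higher and 2.97% lower. Counts of 1 or 2 members are too few to set these lists apart from them.

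The 12 genes singled out in the study's comparison of exposures against controls were chosen on these samples and are no independent evidence of a direction. Bach1, a repressor of antioxidant genes, was at 43.4, 46.5 and 61.1 CPM against 37.8, 40.1 and 46.8 CPM (0.25, 0.06 to 0.44), and Pag1, an adaptor that restrains Src kinases, at 5.72 to 13.6 CPM against 5.40 to 9.33 CPM (0.40, 0.01 to 0.80). The intervals of the other 10 held 0. Grin3b, an NMDA receptor subunit, was at 16.6 to 34.3 CPM against 12.4 to 23.8 CPM (0.34, -0.04 to 0.71), and its litter means did not overlap. The estimates were 0.34 for Bach2, 0.67 for Mfrp, 0.40 for Polq, 0.09 for Sav1, 0.08 for Efna2, 0.13 for Kiaa0408L, -0.38 for Mt1, -0.44 for Calb2 and -0.17 for Vsnl1.

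Region and cell type markers were read in the same way. All 12 tested pineal genes (median 0.92) and all 16 choroid plexus genes (median 0.38) had estimates above 0. Of them 1 and 0 had p below 0.05 (background 3.29% higher). The summed levels of both lists overlapped between the groups, at 215 to 3549 CPM against 316 to 2569 CPM for choroid plexus. Without the 3 animals rich in pineal markers only 6 pineal genes passed the filter on low values, with a median of 0.04. The other pineal genes passed it only through those slices, the highest of them in CRMP1+CRMP2 (364 CPM), so their direction is no support. Of the 15 tested hypothalamic genes 13 and of the 12 midbrain genes 11 were below 0 (medians -0.97 and -0.72), with 1 and 0 at p below 0.05 (Gal, -0.82). The hypothalamic median was 0.10 without the 3 animals rich in pineal markers, and the midbrain median was 0.06 with counts summed per litter, so neither direction held in every setting. Their sums ran from 114 to 261 CPM against 142 to 393 CPM and from 10.5 to 194 CPM against 17.1 to 109.6 CPM. Thalamic genes had a median of -0.30 and 1 member higher, Prkcd (0.33). Hoxb7 had no count in the 8 CRMP1+CRMP2 libraries and reached 1.65 CPM in CRMP1+GDA pups, and Hoxb8 reached 1.53 CPM in 1 CRMP1+CRMP2 male and 12.8 CPM in CRMP1+GDA pups. Hoxb7 passed the filter on low values through the CRMP1+GDA pups alone, so a difference in this direction was required of it. Summed Hox genes reached 117 CPM in a CRMP1+CRMP2 male and 228 CPM in a CRMP1+GDA female.

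Among glia, the oligodendrocyte lineage factors Olig2 and Olig1 were the 2 of 15 lineage genes with p below 0.05, both lower (background 2.97%). Olig2 was at 40.2, 51.2 and 64.8 CPM against 58.7, 63.2 and 68.3 CPM (-0.31, -0.51 to -0.11), and Olig1 was at 115, 139 and 173 CPM against 146, 173 and 200 CPM (-0.31). Litter means of 4 of the 15 genes did not overlap, all lower (background 2.51%). The list's median was -0.30, or 0.02 without the 3 animals rich in pineal markers, and its summed levels were 579 to 760.4 CPM against 588 to 925 CPM. Of 18 genes of radial glia and astrocytes 1, Hopx (-0.51), was lower. Of 14 microglial genes 1 was higher (background 3.29%), Cd68 (0.67), a lysosomal protein, and the median was -0.02. With all 14 animals as the units, no member had p below 0.05 among markers of interneurons, endothelium, meninges, ependyma, erythroid cells, mast cells, habenula, cortical and hippocampal excitatory neurons or general neurons. Some members of the excitatory, habenula and general neuronal lists did with counts summed per litter, and some of the erythroid and ependymal lists without the animals rich in pineal markers. Gpr6 (0.59) of the striatal list and Nts of the hippocampal list were the only members of those lists that did.

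Whether the difference between the exposures depended on sex was tested as an interaction. In edgeR 0 of 12544 genes passed FDR 0.1 (smallest adjusted p = 0.186) and 456 had p below 0.05 (3.64%), while DESeq2 called 8 genes and had 558 at p below 0.05. Fitted in each sex alone, 0 genes passed in 5 against 2 males and 0 in 3 against 4 females, with 235 and 1296 genes at p below 0.05 in edgeR. Of the 2 CRMP1+GDA males 1 came from litter 2.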

How the data were processed

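The authors sequenced poly-A libraries as paired 150-base reads, aligned them with STAR 2.5.4b to rat rn7 and counted genes with featureCounts. The counting options and annotation release are not given in the sources used here. The deposited table holds raw counts for 17494 genes and 71 libraries, with exon coordinates and length. Of counts from 1 to 9 in the 14 libraries 75.2% were even, so most fragments appear to enter as 2 reads, and halved counts were an alternative. No 2 libraries were alike within sampling noise.

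Genes above 1 CPM in at least 2 of the 14 libraries (12544) were tested with edgeR 4.0.16 (R 4.3.3), TMM scaling, robust quasi-likelihood, sex and exposure as terms, and Benjamini-Hochberg adjustment over all of them. Intervals cover 95%. Nothing says that replicates are more than separate pups, and littermates share a dam. limma 3.58.1, DESeq2 1.42.0 and sva 3.50.0 gave alternatives. CPM are TMM-scaled, and control levels were brought to the scale of the 14. Litter means used a prior count of 2. The code was tested on simulated data. Collection cohorts were not used here, and whether they differ between the exposures or set CRMP1+GDA litter 2 apart was not tested.

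Genes were named by a rule: the antigen genes, the 10 smallest p in each direction, the 10 largest differences with litter means apart and over 5 CPM, up to 2 members of each list with p below 0.05, 12 genes of the study's text, and 4 analyte genes. Members and lists were chosen with earlier results of these data known.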

Additional observations from a re-analysis of the deposited data

Results flagged for a closer look

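Among the named genes and marker sums, 198 values by group were examined for a lone extreme animal, and 29 had one by Dixon's ratio. The rate of about 1 in 20 by chance assumes independent, normally distributed values. These values share the same animals and some are mostly 0, so 29 is no measure of an excess. In CRMP1+GDA the litter 2 male was highest for Stat2 (26.2 CPM), Cep85 (32.1), Gipr (80.6), Arpp21 (244.5), Itga8 (15), Bach2 (70.9), Polq (6.02), Vegfa (138.5) and Dlg2 (149.7). In CRMP1+CRMP2 a litter 2 male was highest for Pla2g4b (50.6 CPM), Pdia2 (14.3), Gipr (175.8), Arpp21 (459.7) and Vegfa (166.3). Single animals of CRMP1+CRMP2 also stood apart for Mfrp (61.5 CPM, litter 1 female), Cyfip1 (82.4, lowest, litter 4 female), Bub1b (14.8), Hoxb8 (1.53) and Ccl11 (0.113), and 1 CRMP1+GDA animal for Ccl11 (0.0741), where the levels are a few counts.

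Of the summed markers, CRMP1+CRMP2 held lone high values for pineal gland (363.7 CPM), choroid plexus (3549), striatum (453.9), Hox genes (117.4), midbrain (194.1) and microglia (194.2). CRMP1+GDA held them for pineal gland (66.9 CPM), Hox genes (228) and radial glia and astrocytes (3748).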

How the results depend on the processing

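No paired analysis was possible because the groups share no litter and the replicate numbers only follow accession order. In the main test the count at FDR 0.1 was 0 with all 14 animals. It was 6 in the likelihood ratio test, 7 in DESeq2 and 2 with a surrogate variable, and with 1 animal or litter left out it ran from 0 to 1316, the latter without CRMP1+GDA litter 2. The 786 genes at p below 0.05 became 1391 without sex, 1336 with the surrogate variable, 1862 with all 43 animals of the title series, 173 with counts summed per litter and the share of males as a covariate, 235 in males and 1296 in females. Without 1 animal or litter they ran from 281 to 3153. In alternatives chosen after seeing the data they were 175 without the animals rich in pineal markers and 401 without those poor in thalamic markers. The interaction with sex gave 0 in edgeR and 8 in DESeq2.

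Of 3025 refitted log2 fold changes of 76 named genes, 57 passed FDR 0.1 (42 of them without CRMP1+GDA litter 2) and 26 changed sign, all with p above 0.05; the cause was not tested. In males alone these were Crmp1 (-0.0274), Ldhb (0.0224), Eno2 (0.11), Calb2 (0.0631), Polq (-0.0729) and Vsnl1 (0.14), and in females alone Dpysl2 (0.0147) and Stip1 (0.0021). Without the pineal-rich animals they were Crmp1 (-0.0393), Ldha (7e-04), Ldhb (0.13), Eno2 (0.0601), Bach2 (-0.0966), Calb2 (0.0108), Kiaa0408L (-0.0832), Polq (-0.0094) and Vsnl1 (0.16), and without the thalamus-poor ones Crmp1 (-0.0369) and Sav1 (-0.0168). With the share of males as a covariate they were Ldha (0.0206) and Ldhb (0.0277). With 1 animal or litter left out, the range crossed 0 for Crmp1 (-0.0297 to 0.11), Gda (-0.0129 to 0.26), Ldhb (-0.20 to 3e-04) and Efna2 (-3e-04 to 0.16). The litter is the unit of exposure, and 4 against 3 litters limit every test over litters.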
